A study of Mus musculus with 21 samples.

Results

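The heat shock proteins and J-domain chaperones on the array were followed in the cerebral cortex of mice that carry human TDP-43 transgenes. Members were taken by symbol, as the Hspa, Hspb, Hspd, Hspe, Hsph and Hsp90 genes and the Dnaja, Dnajb and Dnajc genes, without Hspa5. The rule found 60 of 12393 genes, covered by 120 of the 20380 probe sets that named a single gene. For each gene the probe set with the highest mean level was used. The members comprised 8 HSP70, 3 HSP110, 2 HSP90, 5 small heat shock protein and 2 chaperonin genes, and 4 J proteins of class A, 12 of class B and 22 of class C. The symbol pattern also took in Hspbp1 and Hspb11, 2 genes that are not chaperones of these families by function. All 60 members were found in the RefSeq gene table under the same symbol.

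Chaperones bind unfolded segments of other proteins and help them fold, hold them soluble or pass them on for degradation. In the HSP70 cycle, J-domain proteins deliver clients and trigger ATP hydrolysis by HSP70, and HSP110 and other exchange factors release ADP so that the client can leave. HSP90 acts on late folding stages of kinases and receptors, small heat shock proteins hold clients without ATP, and the chaperonin of the mitochondrion encloses them. Heat and misfolded protein induce part of these genes through the transcription factor HSF1, which binds the heat shock element in their promoters. In neurons, several of these proteins act on disease-linked aggregates, and TDP-43 itself is deposited in the cytoplasm in amyotrophic lateral sclerosis and frontotemporal dementia.

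One array was made for each of 21 mice, all of mixed C57BL/6J x C3HeJ background. The 5 dNLS bigenic mice of line NLS4 carried both tTA, the doxycycline-controlled transactivator, and a TDP-43 transgene with a defective nuclear localization signal. The 4 WT bigenic mice of line WT12 carried tTA and wild-type human TDP-43. The 4 dNLS monogenic mice of line NLS4 had the TDP-43 transgene without tTA, and the 8 nontransgenic mice had neither, 6 of them from line NLS4 and 2 from line WT12. Tissue was taken 2 weeks after doxycycline withdrawal. Ages are not stated in the sources used here. As known from this model, the Camk2a promoter directs tTA to forebrain neurons, and each line derives from its own transgene insertion. No group had tTA alone, so effects of tTA and of TDP-43 cannot be told apart against nontransgenic or dNLS monogenic mice. Line and transgene cannot be told apart between the bigenic groups. By label, males numbered 4 of 5 in dNLS bigenic, 3 of 4 in dNLS monogenic, 1 of 4 in WT bigenic and 4 of 8 in nontransgenic mice. Nontransgenic 1, labelled male, read as female by Xist and Eif2s3y. Nothing in the labels says more of the replicates than that each is its own mouse.

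Levels are on the log2 scale as deposited, with a median of 5.76 to 6.05 per array and a lowest value of 2.04 that 30.7% to 32.4% of all 22690 probe sets shared. The 4 probe sets of mouse Tardbp did not rise together in bigenic mice: the brightest read 10.73 to 11.01 in dNLS bigenic and 10.89 to 11.31 in nontransgenic mice, and the next 9.38 to 9.62 against 10.59 to 11.07. The third overlapped (7.03 to 7.66 against 6.84 to 8.68), and the fourth and dimmest was higher in dNLS bigenic (6.06 to 7.10) than on every nontransgenic array (5.10 to 5.99). How far they read the human transgene was not tested. RNA quality was read from the 3' minus 5' difference of the beta-actin control probe sets, which grows when targets are short. It spanned 1.34 to 2.30 in dNLS bigenic, 1.37 to 1.43 in WT bigenic, 1.56 to 3.13 in dNLS monogenic and 1.46 to 8.20 in nontransgenic mice, with nontransgenic 4 at 4.70 and nontransgenic 6 at 8.20. For Gapdh, the difference between 3' and middle probe sets was smaller in dNLS bigenic (0.453 ± 0.017, SD, n = 5) than in nontransgenic mice (0.750 ± 0.454, SD, n = 8; two-sided exact permutation p = 0.00622, adjusted over 5 comparisons p = 0.0202). Some results that turn on these arrays are given with and without them. Of the markers of cortical cells, 3 of 5 for excitatory neurons (Neurod6, Camk2a and Tbr1), 5 of 5 for interneurons, 6 of 6 for astrocytes, 6 of 6 for microglia and 4 of 5 for oligodendrocytes were measured, and none of these lay at the lowest value throughout a group. Foxj1 of ependyma, Hba-a1 of blood and Tnp1 of testis lay at the lowest value on all arrays. Prm1 of testis read 3.71 to 3.78 in dNLS bigenic and 3.78 to 4.16 in nontransgenic mice. Of 4 choroid plexus markers, Ttr read 12.13 to 14.17 in dNLS bigenic and 10.58 to 13.87 in nontransgenic mice. Kl read 2.04 to 5.57 and 2.04 to 2.86. The mean log2 level of the 4 had medians of 5.48 and 4.66. In limma, 0 of the 4 passed between these groups. The part of choroid plexus in the chaperone values was not tested.

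The first comparison asked which chaperone genes differed in cortex that expressed cytoplasmic TDP-43. In dNLS bigenic against nontransgenic mice, 7 of the 60 members rose and 14 fell, past an adjusted p of 0.05 in limma with Benjamini-Hochberg adjustment over all 12393 genes. That is 35% of the members, where 22.3% of all genes passed, 10.8% upward and 11.5% downward. Of these, 7 members and 2854 genes lay at the lowest value on all arrays, where 0 members and 3 genes passed; among those above it on at least 1 array, 39.6% of 53 members and 28.9% of 9539 genes passed. On the log2 scale, the median change was -0.08 over the members and 0 over all genes. Centring each array on its median shifted the median gene to -0.08 and the split of all genes from 1336 up and 1423 down to 971 up and 1738 down, and then 6 members rose and 17 fell. Without nontransgenic 4 and 6, which had the largest 3' bias, 9 members rose and 12 fell. Of all genes, 1688 then rose and 1612 fell. When the fit held the dNLS bigenic and nontransgenic groups alone, 15 members passed, and 958 of all genes rose and 968 fell. Dnajc4, Dnajc7, Dnajc10, Dnajc17, Hspa4 and Hspa14 were lost in that fit (adjusted p = 0.063 to 0.096). In whole tissue, fewer cells of a type and less RNA per cell cannot be told apart. The mean log2 level of the microglial markers had a median of 9.28 in dNLS bigenic and 9.65 in nontransgenic mice, with ranges of 9.0 to 9.57 and 8.73 to 10.06, and that of the astrocyte markers 11.44 and 11.69, with ranges of 11.32 to 11.66 and 11.48 to 11.81. Of the 6 markers in each list, 1 passed in this comparison, Tmem119 and Aldh1l1, both lower. Of the neuronal and oligodendrocyte markers, Tbr1 fell by 0.30, Gad1 by 0.20, Sst by 0.44 and Mbp by 0.13, and the other 8 did not pass. The part of such shifts in the chaperone values was not tested.

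**Figure D1:**
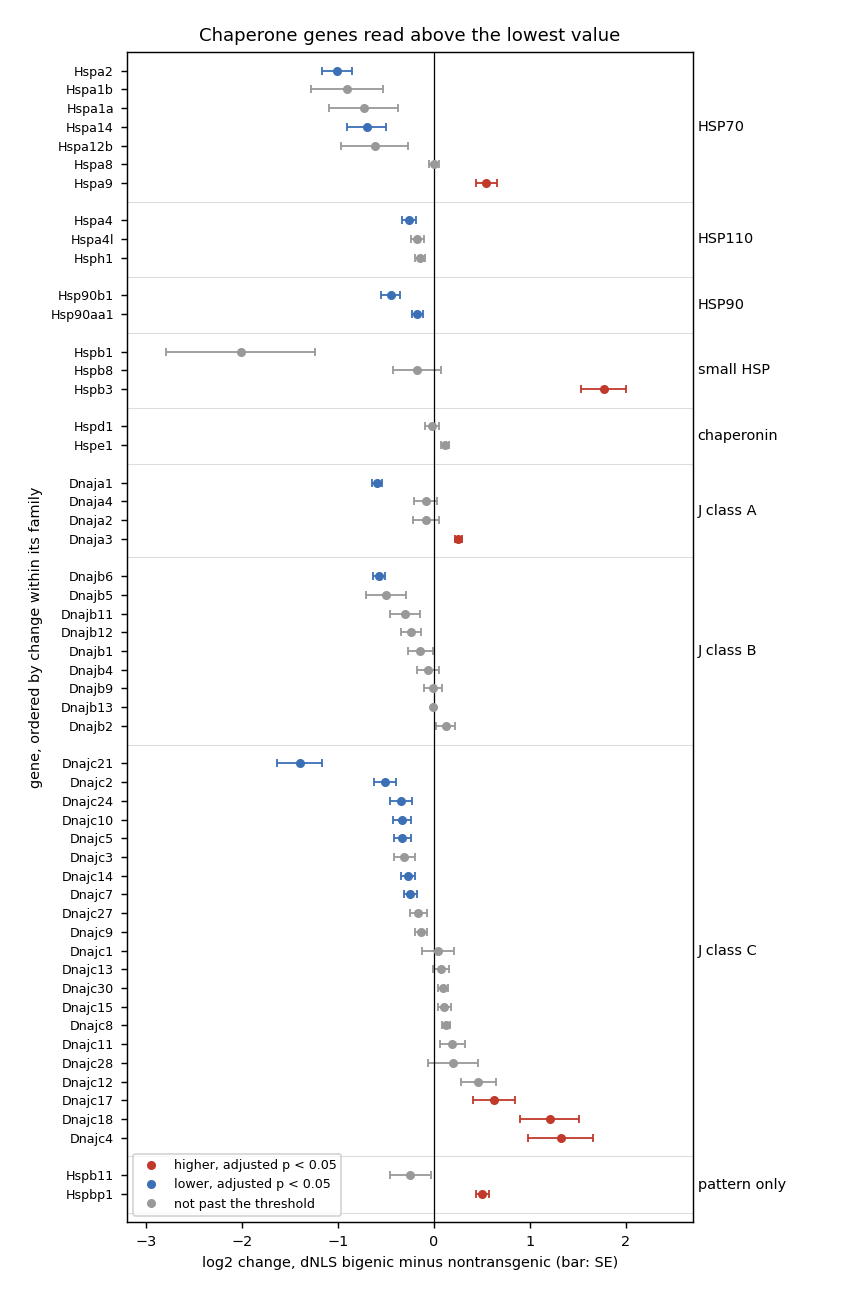
Log2 change between dNLS bigenic (n = 5) and nontransgenic mice (n = 8) for the 53 members above the lowest value on at least 1 array, ordered within each family (bars, SE of the limma fit). Red points rose and blue points fell past an adjusted p of 0.05; Hspb3 lies farthest to the right at 1.77, and Hspb1 farthest to the left at -2.01 with a wide bar and no call.

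By compartment, as listed from general knowledge, the mitochondrial members had 3 rises (Hspa9, Dnaja3 and Dnajc4) and 0 falls among 9, with 6 not past the threshold. The members of the endoplasmic reticulum had 1 rise (Dnajc18) and 2 falls (Hsp90b1 and Dnajc10) among 8. The 43 members of cytosol, nucleus and vesicles had 3 rises (Hspb3, Dnajc17 and Hspbp1) and 12 falls. The list counted Dnajc14, which fell, among the 43, and this placement was not checked against a source. Placed in the endoplasmic reticulum, it would move its fall to that group. Of the mitochondrial members, those of the endoplasmic reticulum and the rest, 33.3%, 37.5% and 34.9% passed. Of all genes 22.3% passed, 10.8% upward and 11.5% downward. The median changes of these groups were 0.19, -0.27 and -0.14 on the log2 scale, beside 0 for all genes. Whether the compartments differ from each other was not tested. Of the 43, 7 lay at the lowest value on all 21 arrays and could show no change: Hspa1l, Hspb2, Hspb7, Dnajb3, Dnajb7, Dnajb8 and Dnajc5b.

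Separation by array was seen for 7 members. Hspa9, Hspb3 and Hspbp1 read higher on all 5 dNLS bigenic arrays than on any of the other 16, as did 4.91% of all genes. Dnaja1, Dnajb6, Dnajc7 and Hspa2 read lower on all 5, as did 3.05% of all genes. Against the nontransgenic arrays alone, Dnaja3 and Dnajc18 joined those entirely above (6.78% of all genes) and Dnajc21 those entirely below (5.68%).

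**Figure D2:**
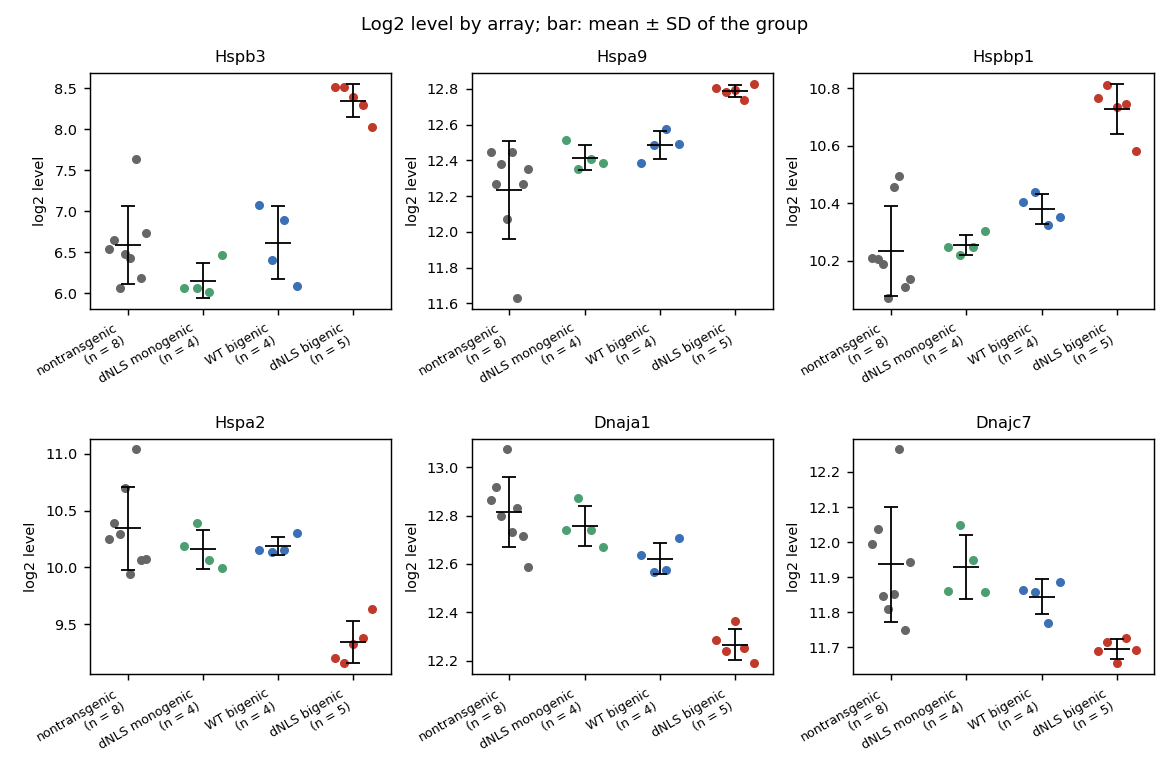
Log2 level by array (points) with mean and SD of the group (bars) for 6 members whose dNLS bigenic arrays did not overlap any other array. Hspb3, Hspa9 and Hspbp1 lay above and Hspa2, Dnaja1 and Dnajc7 below; the lowest Hspa9 value, 11.63, and the highest Hspb3 and Hspa2 values outside the group belong to nontransgenic 6.

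Among the 8 HSP70 genes, 1 rose, 2 fell and 5 did not pass, so 37.5% passed, beside 22.3% of all genes. Hspa8, the constitutive cytosolic HSP70 and the partner of most J proteins, read 14.29 to 14.40 in dNLS bigenic mice and 14.09 to 14.44, with a median of 14.38, in nontransgenic mice. The groups overlapped, and the change was 0.0019 ± 0.048 (SE; adjusted p = 1). The sign of so small a difference turned with the setting, and a second probe set of Hspa8 was lower by a change of -0.12 (adjusted p = 0.049 over all probe sets).

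Hspa2, an HSP70 best known from the male germline, read 9.21, 9.16, 9.33, 9.38 and 9.64 in the dNLS bigenic mice. It read 10.19, 10.39, 10.07 and 9.99 in dNLS monogenic mice, 10.16, 10.13, 10.15 and 10.31 in WT bigenic mice, and 9.94 to 11.04, with a median of 10.27, in nontransgenic mice. All dNLS bigenic arrays lay below every other array, and the other 3 groups overlapped. Hspa2 fell by 1.01 ± 0.16 on the log2 scale against nontransgenic mice (SE; 2.01-fold; adjusted p = 0.000146). The falls against WT bigenic mice (0.86, adjusted p = 0.0072) and dNLS monogenic mice (0.82, adjusted p = 0.0042) also passed. The change kept its direction and its call under every alternative tried in all 3 comparisons.

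Hspa9, the HSP70 of the mitochondrial matrix, which pulls precursor proteins through the inner membrane and folds them, read 12.80, 12.78, 12.79, 12.74 and 12.83 in dNLS bigenic mice. It read 11.63 to 12.45, with a median of 12.31, in nontransgenic mice, 12.35 to 12.52 in dNLS monogenic and 12.39 to 12.58 in WT bigenic mice. The dNLS bigenic arrays were the highest of all and lay within 0.1 of each other, whereas nontransgenic 6 was the lowest of its group. Hspa9 rose by 0.55 ± 0.11 (SE; 1.46-fold; adjusted p = 0.00113), and its second probe set rose by 0.20 (adjusted p = 0.0021 over all probe sets). Against WT bigenic and dNLS monogenic mice its differences of 0.29 and 0.37 did not pass (adjusted p = 0.216 and 0.0522), although the arrays did not overlap.

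Its partners were read beside it. Dnaja3, the J protein of the mitochondrial matrix, read 11.84, 11.89, 11.94, 11.87 and 11.75 in dNLS bigenic mice and 11.52 to 11.71, with a median of 11.57, in nontransgenic mice. These groups did not overlap, and Dnaja3 rose by 0.26 ± 0.035 (SE; adjusted p = 4.05e-05). Grpel1, a nucleotide exchange factor of the mitochondrial HSP70 and a gene of the co-chaperone list, rose by 0.54 ± 0.041 (SE; adjusted p = 9.31e-08), with 11.91 ± 0.07 in dNLS bigenic and 11.38 ± 0.08 in nontransgenic mice (SD, n = 5 and 8). Grpel2 of the same list did not pass, with 9.09 ± 0.14 and 8.87 ± 0.39. The mitochondrial J protein Dnajc15 did not pass either, with a change of 0.11. Grpel1, Grpel2 and Dnajc15 were named after their values were seen. Grpel1 and Dnaja3 also rose against WT bigenic mice (0.41, adjusted p = 5.01e-05, and 0.18, adjusted p = 0.0109) and against dNLS monogenic mice (0.52, adjusted p = 1.26e-06, and 0.16, adjusted p = 0.0081). For Dnaja3 the calls against WT bigenic and dNLS monogenic mice ended with centred arrays and with the mean of all its probe sets. Of the chaperonin of the same compartment, Hspd1 had a change of -0.022 (adjusted p = 1) and Hspe1 a change of 0.12 (adjusted p = 0.071), and neither passed. Hspe1 passed without the sex term (adjusted p = 0.037) and without nontransgenic 5 (adjusted p = 0.049).

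Hspa14 is an atypical HSP70 that works at the ribosome with the J protein Dnajc2 on nascent chains. Hspa14 read 9.81, 9.68, 9.74, 9.80 and 9.84 in dNLS bigenic mice and 9.78 to 11.31, with a median of 10.53, in nontransgenic mice. It fell by 0.70 ± 0.20 (SE; adjusted p = 0.0176), although nontransgenic 5, at 9.78, lay within the dNLS bigenic range. The WT bigenic arrays, at 9.68, 9.72, 9.73 and 9.86, lay in the same range, with a change of -0.72 (adjusted p = 0.0836) that did not pass. With the actin bias as a covariate, the fall of Hspa14 in dNLS bigenic mice was 0.44, and its second probe set had a change of -0.12 (adjusted p = 0.412). Dnajc2 read 10.06, 10.14, 10.10, 10.06 and 10.35 in dNLS bigenic mice and 10.35 to 11.19, with a median of 10.65, in nontransgenic mice. Only the dNLS bigenic 5 array reached the nontransgenic range. Dnajc2 fell by 0.51 ± 0.11 (SE; adjusted p = 0.00285) and by 0.53 against WT bigenic mice (adjusted p = 0.0183), and its second probe set fell by 0.59 (adjusted p = 0.0074).

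Of the exchange factors of HSP70 read here, Hspbp1 rose, and the direction for Hspa4 depended on the probe set. Hspbp1, which releases ADP from cytosolic HSP70, read 10.77, 10.81, 10.74, 10.74 and 10.58 in dNLS bigenic mice and 10.07 to 10.49, with a median of 10.20, in nontransgenic mice. No other array reached the dNLS bigenic range, and Hspbp1 rose by 0.50 ± 0.066 (SE; 1.42-fold; adjusted p = 3.1e-05). It rose by 0.37 against WT bigenic mice (adjusted p = 0.007) and by 0.47 against dNLS monogenic mice (adjusted p = 0.000326). Of the HSP110 genes, which serve as exchange factors and can hold clients, Hspa4 fell by 0.26 ± 0.070 (SE; adjusted p = 0.0112), a call that ended without dNLS bigenic 5 (adjusted p = 0.075). Hsph1, the heat-inducible HSP110, had a change of -0.14 (adjusted p = 0.054) and Hspa4l a change of -0.17 (adjusted p = 0.085). Hsph1 passed against nontransgenic mice of line NLS4 (-0.18, adjusted p = 0.0063), with centred arrays (-0.23, adjusted p = 0.047), and without nontransgenic 6 (adjusted p = 0.039), 7 (0.024) or 8 (0.038).

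Class A J proteins, the general partners of cytosolic HSP70, were led by Dnaja1. It read 12.29, 12.24, 12.37, 12.25 and 12.19 in dNLS bigenic mice and 12.59 to 13.07, with a median of 12.82, in nontransgenic mice. The dNLS monogenic arrays spanned 12.67 to 12.87 and the WT bigenic arrays 12.57 to 12.71, so that the dNLS bigenic arrays were the lowest of all 21. Dnaja1 fell by 0.59 ± 0.051 (SE; 1.5-fold; adjusted p = 3.71e-07), by 0.43 against WT bigenic (adjusted p = 0.000251) and by 0.50 against dNLS monogenic mice (adjusted p = 1.72e-05). Its second probe set fell by 0.30 (adjusted p = 0.0101). Dnaja2 and Dnaja4 had changes of -0.08 each and did not pass, but a second, dimmer probe set of Dnaja2 fell by 0.45 (adjusted p = 0.0003).

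In class B, 1 of 12 members passed (8.33%, beside 22.3% of all genes), and 9 of the 12 read above the lowest value on at least 1 array. Dnajb6, which keeps polyglutamine proteins from aggregating and is mutated in a limb-girdle muscular dystrophy, read 12.67, 12.77, 12.68, 12.68 and 12.50 in dNLS bigenic mice at its brightest probe set. The dNLS monogenic arrays read 13.07 to 13.13, the WT bigenic arrays 12.95 to 13.07 and the nontransgenic arrays 13.10 to 13.53, with a median of 13.18. The lowest array outside the dNLS bigenic group was WT bigenic 3, and the fall was 0.57 ± 0.063 (SE; adjusted p = 5.23e-06) against nontransgenic, 0.38 (adjusted p = 0.00345) against WT bigenic and 0.43 (adjusted p = 0.000436) against dNLS monogenic mice.

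The 4 probe sets of Dnajb6 did not move together. The second by mean level read 10.71 to 11.02, with a median of 10.86, in dNLS bigenic mice and 9.77 to 10.45, with a median of 10.08, in nontransgenic mice. It rose by 0.79 ± 0.096 (SE), and by 0.43 in WT bigenic against nontransgenic mice (adjusted p = 0.043 over all probe sets). The fourth, which lay near the lowest value in nontransgenic (2.10 to 2.28) and dNLS monogenic mice (2.05 to 2.41), read 5.43, 5.15, 6.09, 3.94 and 4.61 in dNLS bigenic mice and 2.52, 2.32, 3.78 and 2.49 in WT bigenic mice. It rose by 2.79 ± 0.29 (SE), with all dNLS bigenic arrays above every other array. The third fell by 0.83 ± 0.21 (SE; adjusted p = 0.0083). Averaging the 4 turned the change of the gene to 0.55 (adjusted p = 0.0021), so the direction for Dnajb6 depends on the probe set. The positions of the probe sets on the transcripts were not analysed here.

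**Figure D3:**
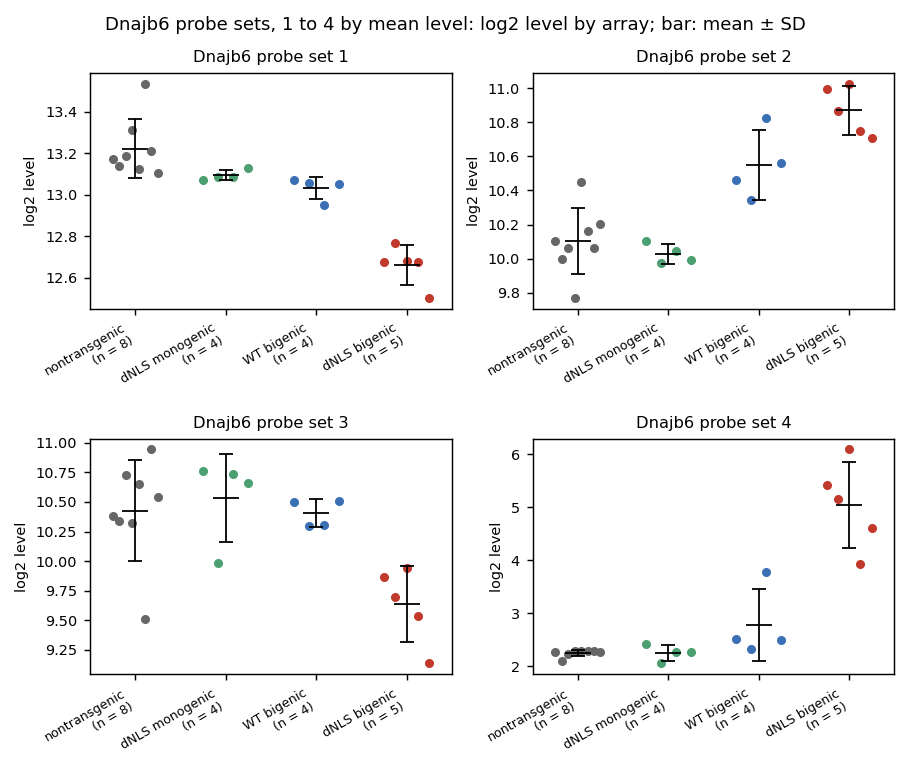
Log2 level by array (points) with mean and SD of the group (bars) for the 4 probe sets of Dnajb6, numbered by mean level, each on its own axis. Sets 1 and 3 were lower and sets 2 and 4 higher in dNLS bigenic than in nontransgenic mice, with changes of -0.57, -0.83, 0.79 and 2.79.

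Probe sets passing in opposite directions were also found in Hspa4, Dnajc5 and Dnajc14, so in 4 of the 35 members that had more than 1. The share of all genes with such opposite calls is not given here. Of all 120 probe sets of members, 13 rose and 19 fell, where 19.7% of the 20380 probe sets passed. The third probe set of Hspa4 read 11.55 to 11.78 in dNLS bigenic and 10.60 to 11.30 in nontransgenic mice and rose by 0.59 ± 0.11 (SE; adjusted p = 0.0006). The fifth of Dnajc5 read 7.77 to 8.64 against 6.49 to 8.13 and rose by 1.10 ± 0.26 (SE; adjusted p = 0.0049). For Hspa4 and Dnajc5 the mean of all probe sets had the opposite sign from the brightest, 0.25 (adjusted p = 0.362) and 0.47 (adjusted p = 0.255), without passing.

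The other class B genes named for their part in neurons did not pass. Dnajb2, which sorts ubiquitinated clients in neurons, had a change of 0.12 (adjusted p = 0.478), and Dnajb1, the heat-inducible partner of HSP70, a change of -0.14 (adjusted p = 0.57).

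Class C, whose J proteins have specialised tasks, held 3 rises and 7 falls among 22 (45.5%, beside 22.3% of all genes). Dnajc21, a factor of ribosome assembly, read 9.15, 8.49, 8.67, 7.95 and 8.46 in dNLS bigenic mice and 9.46 to 10.68, with a median of 9.81, in nontransgenic mice. These arrays did not overlap, and the WT bigenic arrays, at 8.63 to 9.36, overlapped the dNLS bigenic ones and lay below every nontransgenic array. Dnajc21 fell by 1.40 ± 0.23 (SE; 2.64-fold; adjusted p = 0.00027), and by 1.07 against dNLS monogenic mice (adjusted p = 0.0098). WT bigenic mice differed from nontransgenic mice by -0.86 (adjusted p = 0.077).

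Dnajc7, which binds both HSP70 and HSP90 and is linked to amyotrophic lateral sclerosis, read 11.69, 11.71, 11.65, 11.73 and 11.69 in dNLS bigenic mice and 11.75 to 12.26, with a median of 11.90, in nontransgenic mice. The highest dNLS bigenic array and the lowest nontransgenic array differed little, and no array of the other groups reached the dNLS bigenic range. Dnajc7 fell by 0.24 ± 0.068 (SE; adjusted p = 0.0148), a call that ended when the fit held those groups alone (adjusted p = 0.075).

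Dnajc5, the cysteine string protein of synaptic vesicles, fell by 0.33 (adjusted p = 0.0113), with 11.85 ± 0.11 in dNLS bigenic and 12.13 ± 0.20 in nontransgenic mice (SD, n = 5 and 8). Dnajc10, a disulfide reductase of the endoplasmic reticulum, fell by 0.33 (adjusted p = 0.0196), a call that ended without dNLS bigenic 5 (fall of 0.21, adjusted p = 0.143) and with the actin bias as a covariate (adjusted p = 0.052). Dnajc14 fell by 0.27 (adjusted p = 0.0146), but the mean of all its probe sets had a change of -0.05 and did not pass (adjusted p = 0.534). Dnajc24, an enzyme cofactor in the diphthamide modification of a translation factor, fell by 0.34 (adjusted p = 0.041), and leaving out any of 7 single arrays ended that call (adjusted p up to 0.200). These arrays were dNLS bigenic 1, 2 and 5 and nontransgenic 2, 3, 4 and 8. It also ended with the actin covariate, with controls of the same line, with the mean of all probe sets, without the sex term, and without both nontransgenic 4 and 6 (adjusted p = 0.051 to 0.084).

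Dnajc18, a J protein of the endoplasmic reticulum membrane, read 6.30, 6.44, 6.04, 5.57 and 5.90 in dNLS bigenic mice and 4.16 to 5.42, with a median of 4.94, in nontransgenic mice. The groups did not overlap, although dNLS monogenic 4 at 6.26 and WT bigenic 1 at 5.82 reached into the range. Dnajc18 rose by 1.21 ± 0.31 (SE; 2.31-fold; adjusted p = 0.00796). Dnajc4 read 8.42 to 8.88 in dNLS bigenic and 5.58 to 8.43, with a median of 7.62, in nontransgenic mice. The lowest of these was nontransgenic 6, and the WT bigenic arrays at 8.30 to 8.67 overlapped the dNLS bigenic ones. Dnajc4 rose by 1.32 ± 0.34 (SE; adjusted p = 0.00846), or by 0.84 with the actin bias as a covariate. Dnajc17, a nuclear J protein tied to splicing, rose by 0.63 (adjusted p = 0.047), and leaving out any of 8 single arrays ended that call (adjusted p up to 0.115). These were dNLS bigenic 2, 3, 4 and 5 and nontransgenic 3, 4, 7 and 8. It also ended with centred arrays, with controls of the same line, with the mean of all probe sets and without the sex term (adjusted p = 0.060 to 0.090).

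Dnajc12, which helps aromatic amino acid hydroxylases fold, read 6.80, 6.61, 7.01, 6.86 and 6.43 in dNLS bigenic mice. It read 5.75, 5.87, 5.03 and 5.56 in WT bigenic, 5.86, 6.14, 6.14 and 5.93 in dNLS monogenic and 5.77 to 6.82, with a median of 6.12, in nontransgenic mice. The nontransgenic arrays that reached the dNLS bigenic range were 4 and 6. The change against all nontransgenic mice was 0.46 (adjusted p = 0.082). It passed without nontransgenic 4 (adjusted p = 0.032), without nontransgenic 6 (adjusted p = 0.022) and without both, at 0.64 (adjusted p = 0.0030). Dnajc12 rose by 1.09 ± 0.22 against WT bigenic mice (SE; adjusted p = 0.0039). The rise of 0.71 against dNLS monogenic mice (adjusted p = 0.027) was lost without any of 6 single arrays (adjusted p up to 0.089), which were dNLS bigenic 1, 3 and 4 and dNLS monogenic 1, 3 and 4. Dnajc13, an endosomal J protein, had a change of 0.08 (adjusted p = 0.67), which became 0.19 and passed with the actin covariate (adjusted p = 0.0015).

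Both HSP90 genes in the table fell against nontransgenic mice, as did 11.5% of all genes. Hsp90b1, the form of the endoplasmic reticulum, read 11.98, 11.96, 11.92, 11.87 and 11.50 in dNLS bigenic mice and 11.87 to 12.67, with a median of 12.28, in nontransgenic mice. The groups overlapped at the lowest nontransgenic array, number 8 of line WT12. Hsp90b1 fell by 0.45 ± 0.099 (SE; adjusted p = 0.00285). Its second probe set had a change of 0.14 (adjusted p = 0.70), and the mean of both did not pass (-0.15, adjusted p = 0.064). Hsp90aa1, the inducible cytosolic form, fell by 0.17 ± 0.053 (SE; adjusted p = 0.027). That call ended without dNLS bigenic 3 (adjusted p = 0.054), dNLS bigenic 5 (0.160) or nontransgenic 4 (0.064), with the actin covariate (0.061) and without the sex term (0.064), and the other 2 probe sets had changes of 0.19 and 0.09 that did not pass. Hsp90ab1 and Dnajc6 were not analysed here.

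Of the small heat shock proteins, Hspb3 rose the most of all members. Hspb3 is a small heat shock protein of muscle whose mutation is linked to a motor neuropathy. It read 8.52, 8.52, 8.39, 8.30 and 8.02 in dNLS bigenic mice, 6.06, 6.06, 6.02 and 6.47 in dNLS monogenic mice, and 7.08, 6.41, 6.89 and 6.09 in WT bigenic mice. The nontransgenic arrays spanned 6.06 to 7.64, with a median of 6.51. Every dNLS bigenic array lay above the highest of the others, nontransgenic 6, and the other groups overlapped. Hspb3 rose by 1.77 ± 0.23 (SE; 3.42-fold; adjusted p = 2.95e-05), by 1.76 against WT bigenic (adjusted p = 0.000596) and by 2.20 against dNLS monogenic mice (adjusted p = 2.25e-05). It has 1 probe set in the table. Of the 4 muscle markers, Ckm and Tnnt3 lay at the lowest value on all arrays. Acta1 read 7.00 ± 0.19 in dNLS bigenic and 6.65 ± 0.50 in nontransgenic mice, and Actn2 6.22 ± 0.66 and 5.65 ± 0.70 (SD, n = 5 and 8), with changes of 0.36 and 0.62 that did not pass (adjusted p = 0.351 and 0.348). The mean log2 level of the 4 was 4.15 to 4.58, with a median of 4.32, in dNLS bigenic and 3.91 to 4.45, with a median of 4.10, in nontransgenic mice, and its part in the Hspb3 value was not tested. Hspb8 had a change of -0.17 (adjusted p = 0.805).

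Of the 6 heat-inducible members, Hsp90aa1 fell, and Hspb1, Hspa1a, Hspa1b, Dnajb1 and Hsph1 did not pass, where 22.3% of all genes passed. When only genes above the lowest value were fitted, Hspb1 (adjusted p = 0.037), Hspa1b (0.0499) and Hsph1 (0.031) passed as well, all lower, and the same 3 passed against the nontransgenic mice of line NLS4. The nontransgenic mice spread widely. Hspb1, which holds unfolded proteins and guards the cytoskeleton, read 7.77, 7.34, 8.59, 8.32, 6.08 and 9.30 in the nontransgenic mice of line NLS4 and 4.10 and 4.51 in those of line WT12. It read 5.10, 5.10, 5.10, 5.0 and 6.06 in dNLS bigenic, 7.72, 8.0, 6.37 and 5.10 in dNLS monogenic, and 5.26, 6.64, 5.99 and 6.47 in WT bigenic mice. The dNLS bigenic arrays thus lay below all nontransgenic arrays of their own line and above those of the other line. The change against all nontransgenic mice was -2.01 ± 0.78 (SE; adjusted p = 0.076). It passed against nontransgenic mice of line NLS4 (-2.64, adjusted p = 0.0027), without dNLS bigenic 5 (adjusted p = 0.040), and without nontransgenic 7 (0.028) or 8 (0.040).

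Hspa1a and Hspa1b, the stress-induced HSP70 genes, are near-identical copies, so their probe sets may share signal and their separate values are uncertain. Hspa1b read 10.67, 9.97, 10.55, 9.88 and 9.96 in dNLS bigenic and 9.65 to 12.09, with a median of 10.78, in nontransgenic mice. The 3 highest were nontransgenic 3, 4 and 6 at 11.99, 11.86 and 12.09, and the groups overlapped. The change was -0.91 ± 0.37 (SE; adjusted p = 0.099) for Hspa1b and -0.73 (adjusted p = 0.181) for Hspa1a. Hspa1b passed without nontransgenic 8 (adjusted p = 0.048) and against line NLS4 alone (-1.12, adjusted p = 0.026).

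Nontransgenic 3, 4 and 6 also held the highest Hspa1a values, 4.89, 3.31 and 3.44, where no other array exceeded 2.80. Nontransgenic 4 and 6 had the largest actin bias, and nontransgenic 3 had 2.16. Nontransgenic 3 further had the highest Dnajb1 value of all arrays, 12.10. The part of RNA quality in these levels was not tested.

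**Figure D4:**
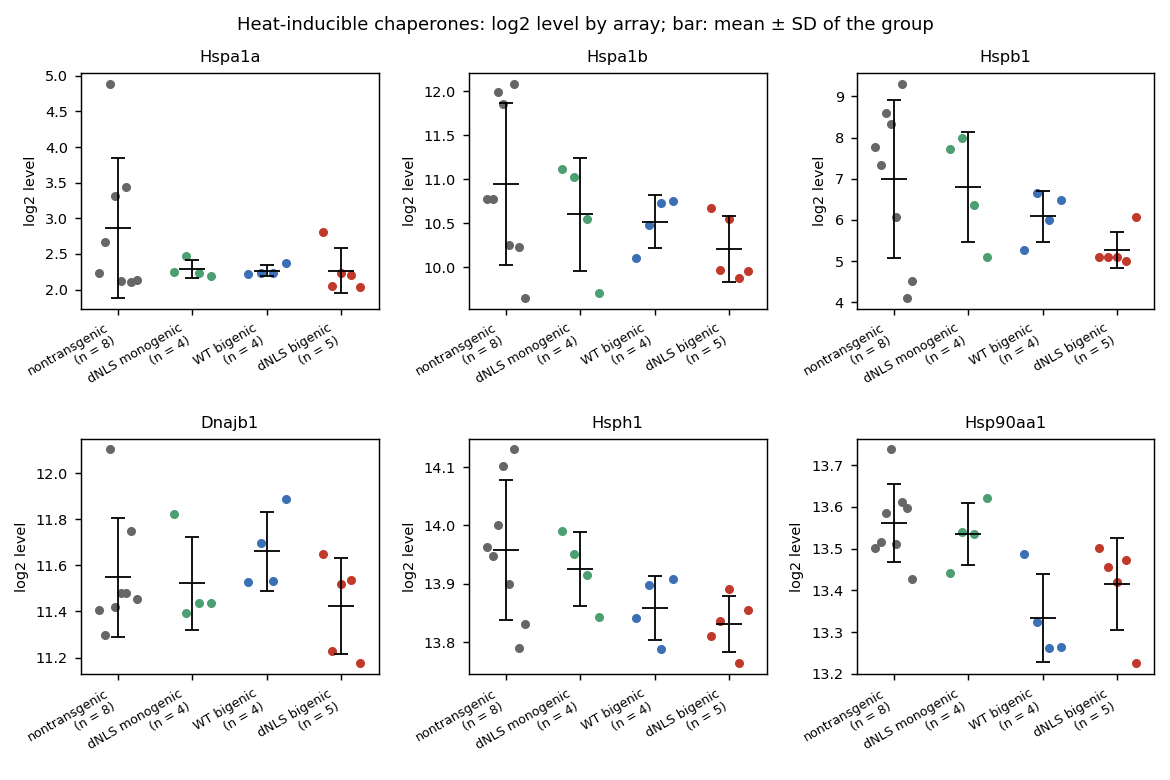
Log2 level by array (points) with mean and SD of the group (bars) for 6 heat-inducible chaperone genes. The groups overlap in all 6 panels; the nontransgenic mice span 9.65 to 12.09 for Hspa1b and 4.10 to 9.30 for Hspb1.

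Promoter bases are shown for the members that bear on the heat shock element. HSF1 binds inverted repeats of the unit GAA, and the motifs searched on both strands were GAANNTTC and TTCNNGAA, which hold 2 units. A longer search asked for 3 alternating units, that is either motif followed after any 2 bases by GAA or TTC in turn, so that its matches include the shorter ones. In the RefSeq promoter table of build GRCm38.p6, 49 of the 60 members had an entry. A match to the shorter motifs was found in 13 of these 49 genes (26.5%) and in 14.5% of all 27025 genes with entries, and a match to the longer ones in 3 (Hspd1, Hspe1 and Dnajb6; 6.12%) against 0.514%. Of the 13, Hspb3 rose, Dnaja1, Dnajb6 and Dnajc10 fell, and 9 did not pass. Of the members with an entry and no such match, 4 rose, 8 fell and 24 did not pass. Of all genes, 22.3% passed. Whether calls differ with the match was not tested. The 250 bases upstream of the start site follow for the member that rose the most, for 2 that fell and for 2 heat-inducible members, with matches in capitals. They lie at chr13:113663677-113663926 (minus strand) for Hspb3, chr4:40722218-40722467 (plus) for Dnaja1, chr5:29735648-29735897 (plus) for Dnajb6, chr17:34959239-34959488 (minus) for Hspa1b and chr5:135887669-135887918 (plus) for Hspb1. The windows of Hspb3, Dnaja1 and Dnajb6 overlap the long noncoding RNA genes Gm34586, Gm6297 and Gm5129, and Dnaja1 and Dnajb6 have further start sites in the table. The further Dnaja1 windows, at chr4:40722672-40722921 and chr4:40722680-40722929, held 0 matches. The further Dnajb6 window, at chr5:29735729-29735978, held the same stretch as the one shown.
Hspb3: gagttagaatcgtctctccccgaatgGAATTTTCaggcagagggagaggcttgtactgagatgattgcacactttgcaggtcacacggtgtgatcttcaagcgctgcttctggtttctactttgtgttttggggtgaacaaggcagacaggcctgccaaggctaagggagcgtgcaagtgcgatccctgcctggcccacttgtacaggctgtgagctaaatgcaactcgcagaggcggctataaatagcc
Dnaja1: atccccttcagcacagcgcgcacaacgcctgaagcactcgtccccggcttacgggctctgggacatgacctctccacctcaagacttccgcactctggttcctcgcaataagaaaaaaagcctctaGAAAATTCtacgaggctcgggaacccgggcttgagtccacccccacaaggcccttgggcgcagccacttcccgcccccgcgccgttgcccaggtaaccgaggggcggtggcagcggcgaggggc
Dnajb6: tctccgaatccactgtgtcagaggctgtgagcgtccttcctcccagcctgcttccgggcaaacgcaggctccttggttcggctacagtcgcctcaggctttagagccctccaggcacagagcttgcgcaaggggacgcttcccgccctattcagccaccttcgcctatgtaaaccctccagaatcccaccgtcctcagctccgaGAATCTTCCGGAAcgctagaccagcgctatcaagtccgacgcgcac
Hspa1b: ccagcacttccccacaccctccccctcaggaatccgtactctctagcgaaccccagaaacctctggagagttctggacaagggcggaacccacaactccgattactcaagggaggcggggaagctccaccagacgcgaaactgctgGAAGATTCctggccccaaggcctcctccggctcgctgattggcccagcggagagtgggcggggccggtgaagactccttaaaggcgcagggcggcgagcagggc
Hspb1: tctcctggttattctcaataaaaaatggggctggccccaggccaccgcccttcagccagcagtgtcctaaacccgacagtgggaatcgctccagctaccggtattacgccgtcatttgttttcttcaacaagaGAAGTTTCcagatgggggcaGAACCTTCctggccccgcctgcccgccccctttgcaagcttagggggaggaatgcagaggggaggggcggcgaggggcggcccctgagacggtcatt

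Each of the 5 windows holds the motif once, except that of Hspb1 with 2 separate matches and that of Dnajb6, where the 3 units run as 1 stretch of 2 overlapping matches. Genes with such a match rose (Hspb3), fell (Dnaja1 and Dnajb6) or did not pass (Hspa1b and Hspb1). A match is a description of letters and not a measured binding site.

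The second comparison asked what wild-type TDP-43 did. In WT bigenic against nontransgenic mice, 0 members rose and 2 fell, 3.33% of the 60, where 2.23% of all genes passed, 0.686% upward and 1.54% downward. The WT bigenic arrays lay entirely below the nontransgenic ones for 6 members, as for 3.33% of all genes, and entirely above for 0, as for 1.92%. Hsp90b1 read 11.77, 11.71, 11.67 and 11.76 in WT bigenic mice, below all nontransgenic arrays, and fell by 0.45 ± 0.11 (SE; adjusted p = 0.035). Dnajc14 read 11.09, 10.98, 10.97 and 11.13, also below all of them, and fell by 0.43 ± 0.080 (SE; adjusted p = 0.0181). For Hsp90b1 the call ended without nontransgenic 2 or any single WT bigenic array (adjusted p up to 0.145), and for Dnajc14 without WT bigenic 1, 2 or 3 (adjusted p up to 0.076). Against the 2 nontransgenic mice of line WT12, the falls were 0.24 (adjusted p = 0.775) and 0.36 (adjusted p = 0.305). The actin bias was lower in WT bigenic (1.39 ± 0.03, SD, n = 4) than in nontransgenic mice (3.18 ± 2.31, SD, n = 8; two-sided exact permutation p = 0.00404, adjusted p = 0.0202), and with it as a covariate the change of Hsp90b1 was -0.29.

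**Figure D5:**
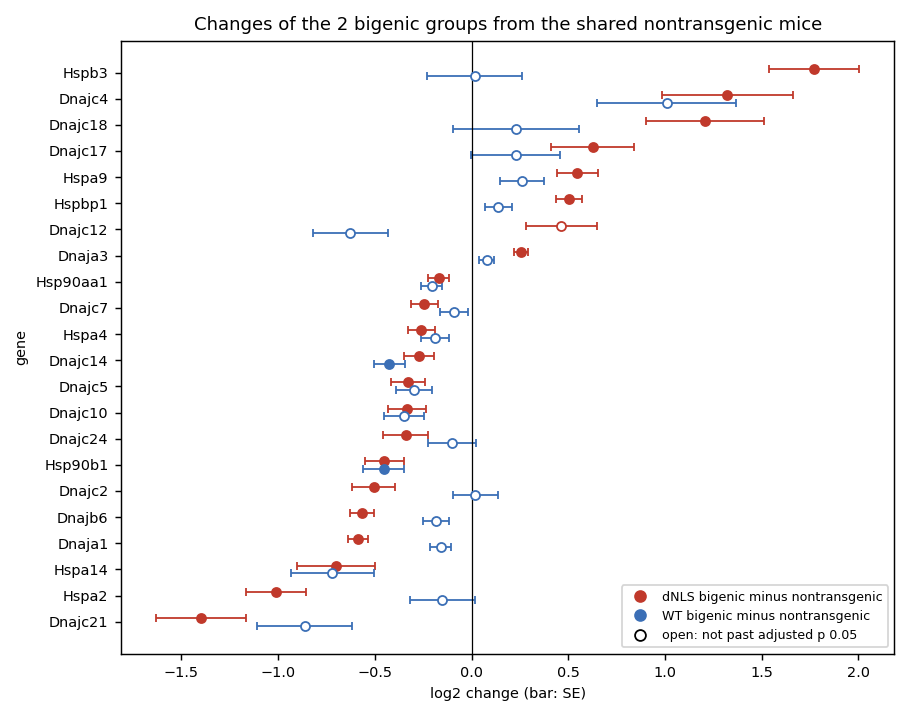
Log2 change of each bigenic group from the same nontransgenic mice (bars, SE) for the 22 members past the threshold in any comparison; filled points passed an adjusted p of 0.05. Hsp90b1 and Dnajc14 are filled in both colours, and Dnajc12 lies at 0.46 in dNLS bigenic and -0.63 in WT bigenic mice with neither point filled.

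The bigenic groups were then set against each other. In dNLS bigenic against WT bigenic mice, 4 members rose (Hspb3, Dnajc12, Hspbp1 and Dnaja3) and 4 fell (Hspa2, Dnajc2, Dnaja1 and Dnajb6), 13.3% of the 60, where 10.8% of all genes passed, 6.24% upward and 4.53% downward. All 8 calls held without each single array. With arrays centred on their medians, Dnaja3, Dnajb6 and Dnajc2 no longer passed (adjusted p = 0.061, 0.058 and 0.077). With the mean of all probe sets, Dnaja3 (0.27, adjusted p = 0.577) and Dnajc2 (-0.27, adjusted p = 0.177) did not pass. Dnajb6 then had a change of 0.35 (adjusted p = 0.142). The count grew to 13 without nontransgenic 4 and 6 and to 16 when the fit held only these groups. Among all genes, 773 up and 561 down became 1272 and 1002 without nontransgenic 4 and 6. In the fit of only these groups they became 1400 and 920. Hspa14, Hsp90b1 and Dnajc10, all lower than in nontransgenic mice in the dNLS bigenic group, had differences of 0.021, 0.0031 and 0.015 between the bigenic groups and did not pass. The microglial markers had a median of 9.28 in dNLS bigenic and 10.04 in WT bigenic mice, and the ranges did not overlap (9.0 to 9.57 and 9.98 to 10.82). The astrocyte markers stood at 11.32 to 11.66 and 11.79 to 12.33. Their part in the chaperone differences was not tested.

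The dNLS monogenic mice carry the same transgene in the same line without tTA. Against them, 4 members rose in dNLS bigenic mice (Hspb3, Dnajc12, Hspbp1 and Dnaja3) and 5 fell (Dnajc21, Hspa2, Dnaja1, Dnajb6 and Hspa4), 15% of the 60, where 14.3% of all genes passed, 7.76% upward and 6.54% downward. That share lies near the background. The Gapdh difference between 3' and middle probe sets was also smaller in dNLS bigenic (0.453 ± 0.017, SD, n = 5) than in dNLS monogenic mice (0.556 ± 0.095, SD, n = 4; two-sided exact permutation p = 0.0159, adjusted p = 0.0265), and its part in these calls was not tested. With arrays centred, Dnaja3 and Dnajc12 no longer passed (adjusted p = 0.238 and 0.104). With the mean of all probe sets, Dnaja3 did not pass (0.43, adjusted p = 0.171), and Dnajb6 had a change of 0.58 (adjusted p = 0.0057). The call of Hspa4, a fall of 0.28 (adjusted p = 0.0213), ended without any of 5 arrays, dNLS bigenic 1 or 5 or dNLS monogenic 1, 3 or 4. The count grew to 16 without nontransgenic 4 and 6 and to 17 with the actin bias as a covariate. Among all genes, 962 up and 811 down became 1564 and 1321 without nontransgenic 4 and 6. With the covariate they became 1565 and 1325. The comparisons above share the dNLS bigenic arrays, so their lists are not independent of each other. In dNLS monogenic against nontransgenic mice, 0 of the 60 members and 0.0% of all genes passed in limma; at an unadjusted p of 0.05, 1 member and 196 of 12393 genes did.

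The other genes of the chaperone network were read from 3 lists. Of the HSP70 and HSP90 co-chaperones, 25 of 29 were measured, and 6 rose and 3 fell in dNLS bigenic against nontransgenic mice, 36% of them where 22.3% of all genes passed, with a median change of 0.07 beside 0 for all genes. The largest changes past the threshold were those of Bag4, an HSP70 exchange factor, which fell by 0.84 (adjusted p = 0.016), St13, which stabilises the client-bound state of HSP70 and fell by 0.81 (adjusted p = 1.75e-05), and Fkbp4, an immunophilin of HSP90 complexes, which rose by 0.65 (adjusted p = 0.000119). Chosen after their values were seen, Stip1, the adaptor that joins HSP70 to HSP90, rose by 0.63 (adjusted p = 0.000543) and Ahsa1, the activator of the HSP90 ATPase, by 0.37 (adjusted p = 0.00285). Cdc37, which recruits kinases to HSP90, rose by 0.65 (adjusted p = 0.018), Trap1, the mitochondrial HSP90, by 0.36 (adjusted p = 0.0033), and Bag2 fell by 0.53 (adjusted p = 0.034) near the lowest value. Fkbp4, Stip1 and Grpel1 rose and St13 fell in all 3 comparisons of dNLS bigenic mice with another group.

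TRiC, the cytosolic chaperonin, and prefoldin, which delivers actin and tubulin to it, had 13 of 14 genes measured, 3 up and 3 down (46.2%, beside 22.3% of all genes), with a median change of 0.04. All 3 that rose were prefoldin subunits: Pfdn2 by 0.70 (adjusted p = 1.86e-06), Pfdn1 by 0.68 (adjusted p = 0.00685) and Pfdn6 by 0.64 (adjusted p = 1.56e-05). The falls were those of the TRiC subunits Cct4 (0.36, adjusted p = 0.0183) and Cct6a (0.22, adjusted p = 0.0115), and of Vbp1, a prefoldin subunit (0.20, adjusted p = 7.14e-05), all 3 named after their values were seen. Of the heat shock factors and other targets, 9 of 13 were measured, 0 rose and 3 fell (33.3%, beside 22.3% of all genes), with a median change of -0.14: Hsf4 by 1.59 (adjusted p = 0.00296), the collagen chaperone Serpinh1 by 1.09 (adjusted p = 0.047) and the small heat shock protein Cryab by 0.23 (adjusted p = 0.00284). In WT bigenic and in dNLS monogenic against nontransgenic mice, 0 genes of the 3 lists passed in limma, where 2.23% and 0.0% of all genes did.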

How the data were processed

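Total RNA of cerebral cortex was hybridised to Affymetrix MOE430A 2.0 arrays, 1 per mouse. The deposited values are log2 levels of 22690 probe sets. Partek is named in the submitters' processing notes. Normalization, summarization and the log base are not stated in the sources used here, and the base was read from the range of values (2.04 to 15.1). After 64 control probe sets were set aside, 20380 named 1 gene by GEO's platform table, 691 several and 1555 none; the last 2 classes entered no comparison. All 12393 genes, each at its probe set of highest mean, were fitted over 21 arrays in limma 3.58.1 (R 4.3.3; lmFit and eBayes with trend, genotype group and labelled sex), with Benjamini-Hochberg adjustment and a threshold of 0.05. Nontransgenic 1 kept its male label in the sex term, and no fit with its sex as read from Xist and Eif2s3y was run. Probe sets were fitted the same way over all 20380. The fit was tested on simulated data. For dNLS bigenic against nontransgenic mice it recovered 49.3% of changes of 0.5, 83.6% of 1 and 95.5% of 2 on the log2 scale. A change that did not pass may therefore be real. The simulation gave each gene the same spread in all groups, which the data did not always have. For Hspb1 the SD was 1.92 in nontransgenic and 0.44 in dNLS bigenic mice. Quality measures were compared by exact permutation. Names followed a rule: members past the threshold, the main heat-inducible, constitutive and neuronal forms, and the 3 largest changes of each other list. Members and lists were chosen with earlier results of these data known. The number of arrays limits the precision.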

Additional observations from a re-analysis of the deposited data

Results flagged for a closer look

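In 17 of 128 groups of 4 to 8 arrays, 1 array of a named member stood apart from the rest by Dixon's criterion, where chance gives about 1 in 20 groups (5%). Of these, 6 belong to nontransgenic 6, the array of largest actin bias: Dnajc10 at 11.84, Dnajc13 at 12.16 and Hspb3 at 7.64 stood above, and Dnajc4 at 5.585, Hspa8 at 14.09 and Hspa9 at 11.63 below the other nontransgenic arrays. Nontransgenic 4 stood above its group for Dnajc24 at 8.376. In dNLS bigenic mice, array 5 stood apart for Dnajc2 at 10.35, Hsp90b1 at 11.5 and Hspb1 at 6.063, and array 1 for Hspa1a at 2.804. In dNLS monogenic mice, the arrays apart were 1 for Dnajb1 at 11.82, 2 for Dnajc13 at 11.87 and 4 for Hspb3 at 6.466. In WT bigenic mice they were array 3 for Dnajb6 at 12.95 and array 4 for Hspa1a at 2.38 and Hspa2 at 10.31.

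The effect of the bigenic genotype against nontransgenic mice of the same line was compared between lines NLS4 and WT12 for all 60 members, by the interaction in limma with adjustment over all genes. It differed for 5. The share of all genes that differed in this way is not given here, so this count has no background beside it. The effect in line NLS4 minus that in line WT12 was -0.5617 for Dnaja1 (adjusted p = 0.0015), -0.4606 for Dnajb6 (adjusted p = 0.034), -0.8266 for Dnajc2 (adjusted p = 0.017), -1.224 for Hspa2 (adjusted p = 0.016) and -4.396 for Hspb1 (adjusted p = 0.0205), on the log2 scale. Line WT12 has 2 nontransgenic mice, both female by label, so these differences rest on few controls.

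Dnajc19, a J protein of the mitochondrial import motor, is read only by probe sets shared with its pseudogene, and these entered no comparison above. The dimmer of the 2 was higher by 0.8703 in dNLS bigenic than in nontransgenic mice (4.39 ± 0.31 against 3.52 ± 0.23, SD, n = 5 and 8; two-sided exact permutation p = 0.00155, adjusted p = 0.00311), and the brighter one by 0.27 (exact p = 0.123). The gene and its pseudogene cannot be told apart.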

How the results depend on the processing

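In dNLS bigenic against nontransgenic mice, between 15 and 25 members passed under the settings tried and 19 to 24 without each single array, and 9 of the 21 calls held under every alternative (Dnaja1, Dnaja3, Dnajc2, Dnajc18, Dnajc21, Hspa2, Hspa9, Hspb3 and Hspbp1). In WT bigenic against nontransgenic mice the 2 calls became 24 with centred arrays, of which 7 were members at the lowest value on all arrays that only the shift by array made pass. With that centring, 4968 of all 12393 genes passed, 2854 of them at the lowest value on all arrays. The 2 calls became 4 without the sex term, 5 among genes above the lowest value, 1 with the mean of all probe sets, 0 in the fit of those groups alone, 0 against the same line, and 0 to 4 without each array. All genes, 85 up and 191 down at first, became 158 and 347 without the sex term and 65 and 105 with that mean. Among genes above the lowest value, 112 of 8255 rose and 305 fell. In the fit of those groups alone 0 rose and 0 fell, and against the same line 0 rose and 1 fell. In dNLS bigenic against WT bigenic mice the 8 calls became 16 in the fit of those groups alone, 13 without nontransgenic 4 and 6, and 8 to 9 without each array. Against dNLS monogenic mice the 9 became 15, 16 and, with the actin covariate, 17, and 7 to 10 without each array. All genes grew in count under these settings too, with values given above. In the fit of the dNLS bigenic and dNLS monogenic groups alone, 1204 of them rose and 951 fell. Counts of all genes without each single array are not given here. In dNLS monogenic against nontransgenic mice, 0 passed in each. The cause of the other shifts was not tested. With the mean of all probe sets, signs turned for Dnajb6 (0.55, against WT bigenic 0.35, against dNLS monogenic 0.58), Dnajc5 (0.47), Hsp90aa1 (0.035), Hspa4 (0.25, against dNLS monogenic 0.021) and Hspa8 (-0.24). That mean was not fitted without nontransgenic 4 and 6. Near 0, signs turned with the actin covariate for Dnajb2 (-0.012), Hspa8 (-0.064) and Hspd1 (0.061), with centring for Dnajc13 (-0.0069) and Hspa8 (-0.081), in the fit of the compared groups for Hspa8 (-0.0013), without nontransgenic 4 and 6 for Hspa8 (-0.040) and Hspd1 (0.033), and without the sex term for Hspd1 (0.0014). Without single arrays they turned within ranges of -0.025 to 0.018 for Hspa8 and -0.093 to 0.015 for Hspd1. No paired analysis was possible because the labels give a running array number and no replicate numbers shared between groups. Dim probe sets near the lowest value limit how far a fall can be seen.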
